A study of Mus musculus with 8 samples.

Results

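The genes described here encode 9 feedback inhibitors of MAP kinase signalling, most of them acting on the ERK pathway: Spry1, Spry2, Spred1, Spred2, Dusp2, Dusp4, Dusp5, Dusp6 and Dusp10. They were picked by symbol out of 24976 gene symbols in the count table. All 9 passed the filter on low counts, as did 12742 symbols in all. RNA was measured in bulk from mouse CD8+ T cells, which were isolated in the naive state and then activated in culture with anti-CD3 (2 µg per ml), anti-CD28 (1 µg per ml) and IL-2 (10 ng per ml). The WT groups came from wild-type littermates. The groups labelled dKO came from mice that carry Cd8Cre with floxed alleles of Nr4a1 and Nr4a2 (genotype NR4aDKO). Cells of each genotype were collected at 24 and at 48 h, which makes 4 groups of 2 libraries. The sources used here give neither the ages of the mice, nor the exons between the loxP sites, nor how many mice stand behind a library. No label says that replicates came from separate mice or cultures, so p-values measure only the spread between these libraries, which may be technical.

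When the T cell receptor is engaged, RAS activates the kinases RAF, MEK and ERK in turn, and ERK then switches on genes of the immediate early response. The same signal induces its own inhibitors. Sprouty proteins (Spry) and the related Spred proteins act upstream, at the level of RAS and RAF, and Spred proteins do so with neurofibromin, the product of Nf1. Dual specificity phosphatases (DUSP) act downstream, by removing phosphate from the MAP kinases themselves. DUSP2, DUSP4 and DUSP5 are nuclear, DUSP6 is cytoplasmic and prefers ERK, and DUSP10 prefers the stress kinases JNK and p38. The RNA of several of these genes follows ERK activity closely, and DUSP6 and Sprouty RNA are often used as readouts of it.

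The DNA just upstream of 4 members is shown because these genes gave the clearest differences (Spry1, Dusp6 and Dusp2) or hold a match to the motif of serum response factor, which acts downstream of ERK (Dusp5). Sequences are from RefSeq (GRCm38.p6), 5′ to 3′, and begin 250 bases before the RefSeq start. They end at the base before the start, and for Dusp5 37 bases before it, where a GENCODE transcript begins. Capitals mark matches to any of 7 motifs: the NBRE of NR4A receptors (AAAGGTCA), AP-1 (TGANTCA), the cyclic AMP response element (TGACGTCA), an ETS site (CCGGAAGT), an EGR site (GCGNGGGCG), an E-box (CACGTG) and the CArG box of serum response factor. Both strands were searched.
Spry1, chr3:37639697-37639946, plus strand: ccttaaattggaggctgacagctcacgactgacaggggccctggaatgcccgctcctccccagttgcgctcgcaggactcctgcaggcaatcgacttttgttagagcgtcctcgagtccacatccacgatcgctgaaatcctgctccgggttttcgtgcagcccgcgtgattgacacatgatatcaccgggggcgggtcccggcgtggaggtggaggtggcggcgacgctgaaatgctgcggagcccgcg
Dusp6, chr10:99262981-99263230, plus strand: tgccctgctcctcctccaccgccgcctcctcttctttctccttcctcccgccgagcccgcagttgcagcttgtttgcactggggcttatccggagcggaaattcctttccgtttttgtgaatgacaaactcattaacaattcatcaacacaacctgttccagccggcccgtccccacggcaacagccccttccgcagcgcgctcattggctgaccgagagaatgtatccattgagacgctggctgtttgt
Dusp2, chr2:127335909-127336158, plus strand: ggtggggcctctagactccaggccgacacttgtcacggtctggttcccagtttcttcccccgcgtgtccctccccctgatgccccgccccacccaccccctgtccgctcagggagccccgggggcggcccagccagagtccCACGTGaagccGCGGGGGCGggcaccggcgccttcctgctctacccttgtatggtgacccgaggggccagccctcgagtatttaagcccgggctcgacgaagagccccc
Dusp5, chr19:53528895-53529108, plus strand: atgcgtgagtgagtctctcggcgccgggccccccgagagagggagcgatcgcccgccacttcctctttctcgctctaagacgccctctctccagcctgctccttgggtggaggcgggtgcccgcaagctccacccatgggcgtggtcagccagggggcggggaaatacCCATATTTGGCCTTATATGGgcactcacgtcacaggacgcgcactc

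RefSeq promoter entries matched 8 of the 9 members, all but Dusp4. The Dusp5 sequence held a pair of adjoining CArG boxes, CCATATTTGG at bases -82 to -73 and CCTTATATGG at bases -72 to -63 from the start. A CArG box was found in 1.47% of 32851 mouse promoter windows of 250 bases. The Dusp2 sequence held an E-box at bases -109 to -104 and an EGR site at bases -98 to -90, without overlap, against 6.02% and 4.7% of windows with each motif. Spry1 and Dusp6 held none of the 7 motifs in these windows, and neither did Spry2, Spred1, Spred2 and Dusp10. The NBRE was in none of the 8 members' windows and in 1.34% of all windows. A match is a description of letters and not a binding site.

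In GENCODE M21 (GRCm38, the assembly also called mm10) Spry1 lies on chromosome 3 (37639947 to 37644598) and Spry2 on chromosome 14 (105891947 to 105896819). Spred1 lies on chromosome 2 (117121374 to 117182279), Spred2 on chromosome 11 (19924375 to 20024026) and Dusp2 on chromosome 2 (127336159 to 127338376). Dusp4 lies on chromosome 8 (34807297 to 34819894), Dusp5 on chromosome 19 (53529109 to 53542431), Dusp6 on chromosome 10 (99263231 to 99267489) and Dusp10 on chromosome 1 (184013302 to 184075636). The values are counts per gene and cannot be placed on exons or introns. Antisense genes overlap Spry1 (Gm42922), Dusp5 (AC137853.2) and Dusp10 (1700056E22Rik). Since the strand rule of the counting is not given, reads of such pairs cannot be told apart. The antisense gene at Dusp10 had 0 to 6 counts per library, and those at Spry1 and Dusp5 were not analysed here.

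Libraries held 5000952 to 21686236 counts, so that 0 counts would allow a level of up to 0.138 to 0.6 CPM (3 counts, scaled to library size). The deepest was WT 48 h replicate 2, and the next, dKO 24 h replicate 1, held 8278058 counts. Members had at least 21 counts in every library. Levels are given below as CPM after TMM scaling, which corrects for a few RNAs taking a larger share of one library. The TMM factors were 1.03 to 1.17 at 24 h, 0.836 to 0.878 in WT at 48 h and 0.968 to 0.975 in dKO at 48 h. The WT libraries at 48 h resembled each other less (r = 0.965 over genes on the log2 CPM scale) than replicates elsewhere (0.985 to 0.989). Nr4a1 and Nr4a2 were not lower in the groups labelled dKO at 24 h: Nr4a1 was at 275 to 525 CPM in WT and 505 to 532 CPM in dKO, and Nr4a2 at 49.1 to 59.7 and 136 to 142 CPM. At 48 h Nr4a1 was at 777 to 879 and 633 to 668 CPM, and Nr4a2 at 24.5 to 33.1 and 75.3 to 77.1 CPM. Counts per gene include exons a floxed allele may keep, so these values check neither the deletion nor the labels. Xist, made from the inactive X chromosome of females, was at 386 to 816 CPM in WT and at 0.655 to 1.67 CPM in dKO, and 4 Y-linked genes summed to 1.32 to 2 and 135 to 158 CPM. Genotype label and sex can therefore not be told apart in any comparison between them. Of the CD8 T cell markers, 5 of 6 were in the table, summing to 1230 to 1960 CPM. Of the CD4 or regulatory T cell list, Cd4 had 0 to 2 counts per library, Zbtb7b 1 to 11 and Foxp3 9 to 55 (1.34 to 3.51 CPM). Of the B cell list, Cd79a had 0 to 3 counts, Ms4a1 0 to 1 and Cd79b 17 to 86 (3.15 to 6.45 CPM). Lyz2 (myeloid), Ncr1 (NK), Hbb-bs and Hba-a1 (red cells) had 0 in all. The summed myeloid markers were higher in WT at 48 h (10.8 to 13.5 CPM, with Cd14 giving most) than in the other 3 groups (3.52 to 5.2 CPM). The red cell and platelet list was also higher there, at 2.52 to 3.24 CPM against 0.879 to 1.17 CPM, with Pf4 giving most. The summed NK list, nearly all of it Eomes, was at 7.33 to 11.5 and 17 to 22.9 CPM in WT at 24 and 48 h, and at 18.1 to 24.9 and 34.7 to 35.1 CPM in dKO. The part of these shifts in the results was not tested.

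Spry1 and Dusp6 fell from 24 to 48 h in both genotype labels and the other 7 members were not called in either. In WT 2 of 9 members were called, both lower, where 11.4% of all tested genes were called, 7.87% higher and 3.5% lower. In dKO 2 of 9 were called, again both lower, where 3.63% of all genes were called, 1.76% higher and 1.88% lower. The median log2 fold change of the 9 was -0.57 in WT and -0.69 in dKO, against 0 and -0.01 over all tested genes. Here and below, called means an adjusted p (Benjamini-Hochberg over all tested genes) below 0.05 in edgeR's quasi-likelihood test over all 8 libraries.

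**Figure D1:**
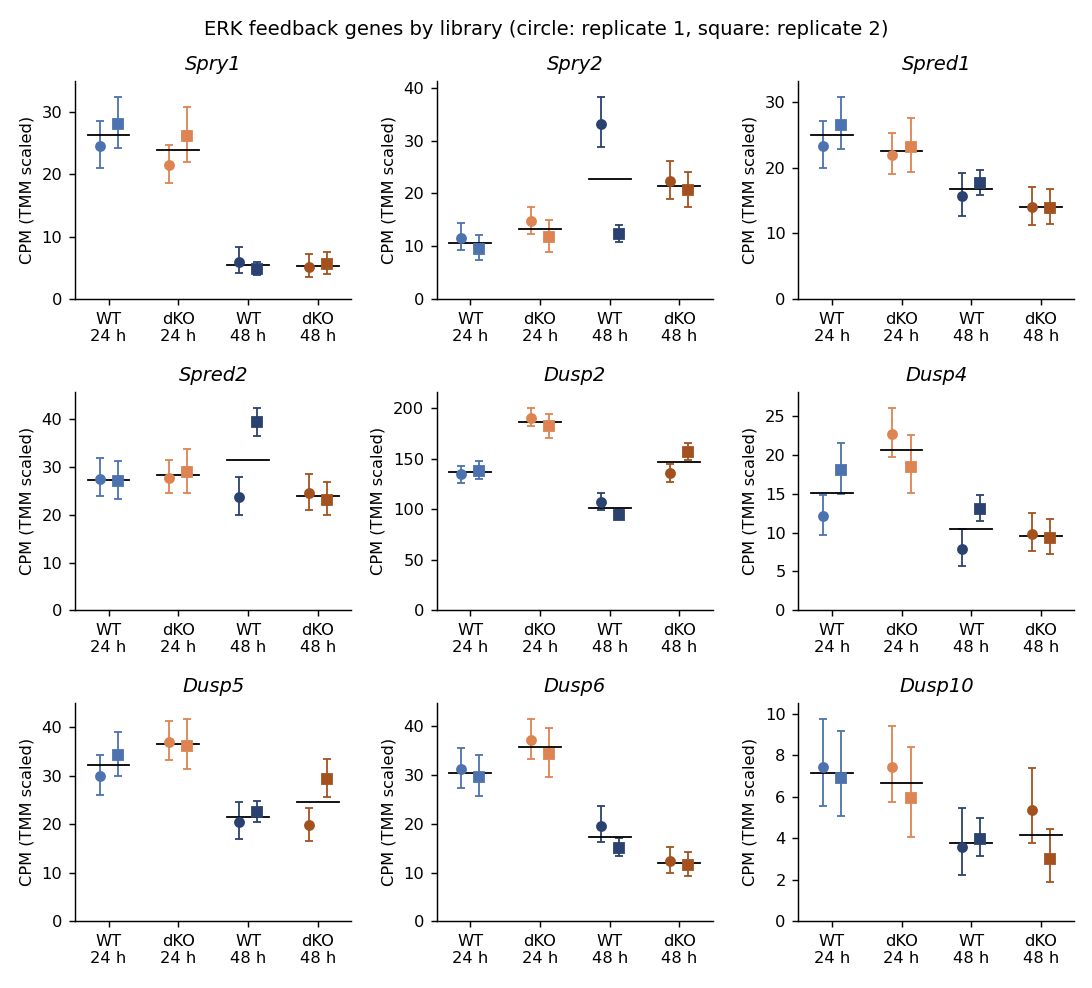
Level of each of the 9 members in every library, in CPM after TMM scaling, by genotype label and time. Points are libraries with 95% Poisson counting intervals and black lines are group means; Spry1 drops from 21.6 to 28.1 CPM at 24 h to 4.89 to 5.97 CPM at 48 h, while the WT libraries at 48 h lie apart for Spry2 (33.2 and 12.4 CPM).

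Spry1, an inhibitor of RAS to ERK signalling downstream of receptors, had the largest change among the 9. In WT it stood at 24.5 and 28.1 CPM at 24 h and at 5.97 and 4.89 CPM at 48 h. In dKO it stood at 21.6 and 26.2 CPM at 24 h and at 5.2 and 5.57 CPM at 48 h. All 4 libraries at 24 h lay well above all 4 at 48 h, and at each time the genotype labels overlapped. The log2 fold change from 24 to 48 h was -2.31 in WT (SE 0.199, adjusted p = 0.000704 in edgeR, a 4.96-fold fall) and -2.14 in dKO (SE 0.206, adjusted p = 0.00133 in edgeR, a 4.4-fold fall). Its p ranked 9 of 12742 in WT and 12 of 12742 in dKO. Both calls held when any 1 of the 8 libraries was left out. In bulk RNA, fewer cells with Spry1 RNA and less of it per cell cannot be told apart.

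Spry2, its close relative, did not follow Spry1. It stood at 11.6 and 9.53 CPM in WT at 24 h and at 33.2 and 12.4 CPM at 48 h. In dKO it stood at 14.7 and 11.7 CPM at 24 h and at 22.3 and 20.6 CPM at 48 h. Both 48 h libraries were above both 24 h libraries within each label, but the WT libraries at 48 h were far from each other. The log2 fold changes from 24 to 48 h were 1.04 in WT (SE 0.393, adjusted p = 0.129 in edgeR) and 0.68 in dKO (SE 0.387, adjusted p = 0.313). Neither was called. Without WT 48 h replicate 2 the change in WT was 1.65 (adjusted p = 0.000124), and without replicate 1 it was 0.24 (adjusted p = 0.356). Those fits call many more genes over time in WT than the fit of all libraries, 2977 of 13228 and 4214 of 13248.

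The pair can also be set side by side within a library, where scaling plays no part. The ratio of Spry1 to Spry2 counts was 2.11 and 2.95 in WT and 1.47 and 2.24 in dKO at 24 h. At 48 h it was 0.179 and 0.394 in WT and 0.233 and 0.27 in dKO. Every 24 h library had more counts for Spry1 than for Spry2, and every 48 h library had fewer. The fall of Spry1 alone lowers this ratio, which therefore says nothing of a change in Spry2. The ratio was chosen after these values were seen and was not tested, and being a ratio of counts it compares libraries and not the abundance of one gene with that of the other.

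**Figure D2:**
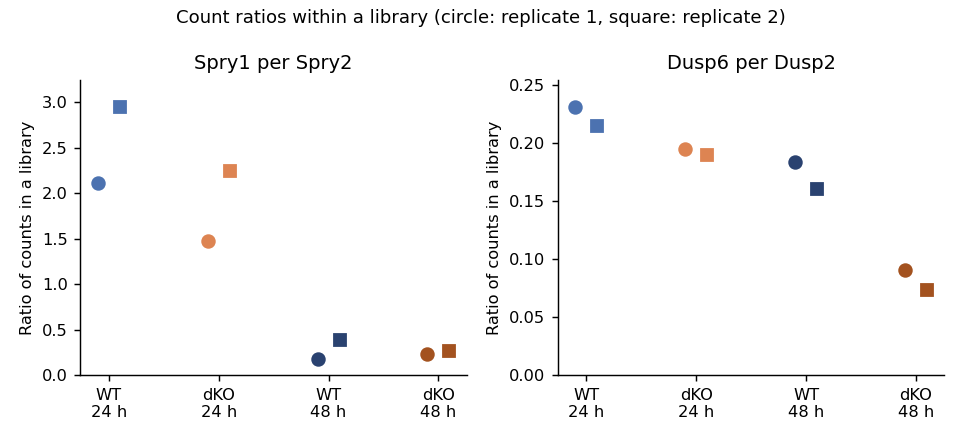
Ratio of Spry1 to Spry2 counts (left) and of Dusp6 to Dusp2 counts (right) in each of the 8 libraries, by group. The Spry1 to Spry2 ratio is 1.47 to 2.95 at 24 h and 0.179 to 0.394 at 48 h, and the Dusp6 to Dusp2 ratio is lowest in dKO at 48 h (0.0734 and 0.0908).

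Spred1 and Spred2 encode membrane-associated inhibitors that bring neurofibromin to RAS. Spred1 stood at 23.3 and 26.5 CPM in WT and at 21.9 and 23.2 CPM in dKO at 24 h. At 48 h it stood at 15.7 and 17.7 CPM in WT and at 14 and 13.9 CPM in dKO. The order was WT at 24 h, dKO at 24 h, WT at 48 h and dKO at 48 h, and no neighbours in it overlapped. At 24 h the labels were apart only by 23.3 against 23.2 CPM, and the share of all genes with 4 groups apart was not counted. Between labels Spred1 was at -0.14 at 24 h (adjusted p = 0.913 in edgeR) and -0.27 at 48 h (0.284), and neither was called. Its time differences just missed the threshold, at -0.57 in WT (SE 0.162, adjusted p = 0.0511 in edgeR) and -0.69 in dKO (SE 0.168, adjusted p = 0.0548). Without either WT 48 h library it passed in both labels (adjusted p = 0.00407 to 0.0232), in fits that also call 3258 of 13228 and 3302 of 13248 genes over time in dKO.

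Spred2 stood at 27.6 and 27.1 CPM in WT at 24 h, at 27.8 and 28.9 CPM in dKO at 24 h and at 24.5 and 23.2 CPM in dKO at 48 h. In WT at 48 h it stood at 23.7 and 39.4 CPM, so that replicate 2 was the highest of all 8 libraries and replicate 1 lay within the range of dKO at 48 h. The 95% interval of its time difference was -0.26 to 0.72 in WT and -0.75 to 0.25 in dKO. Without WT 48 h replicate 1 the difference in WT was 0.54 (adjusted p = 0.00492 in edgeR), and without replicate 2 it was -0.21 (adjusted p = 0.366).

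Dusp6, the cytoplasmic ERK phosphatase, fell in both labels. It stood at 31.1 and 29.6 CPM in WT and at 37.1 and 34.3 CPM in dKO at 24 h. The 48 h libraries stood at 19.6 and 15.1 CPM in WT and at 12.3 and 11.5 CPM in dKO. The 4 groups did not overlap, and the share of all genes of which this holds was not counted. Of the groups, dKO at 24 h was the highest and dKO at 48 h the lowest. The log2 fold change over time was -0.83 in WT (SE 0.174, adjusted p = 0.013 in edgeR, a 1.77-fold fall) and -1.58 in dKO (SE 0.181, adjusted p = 0.00239 in edgeR, a 3-fold fall). The call in WT was lost without WT 24 h replicate 1 (adjusted p = 0.1) or replicate 2 (0.0805). It was also lost in a fit of the WT libraries alone (0.107). The call in dKO was lost without dKO 24 h replicate 1 (0.0509) or dKO 48 h replicate 1 (0.0536) or replicate 2 (0.0636).

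The nuclear phosphatases Dusp2, Dusp4 and Dusp5 and the JNK and p38 phosphatase Dusp10 had lower mean levels at 48 h in both labels. In edgeR over all 8 libraries, 0 of these 4 were called for time. At an unadjusted p under 0.05, 3 of the 4 were lower in WT (Dusp2, Dusp5 and Dusp10) and all 4 were lower in dKO. Of all tested genes 24.6% and 23.3% passed that limit in either direction, and the share that was lower was not counted. DESeq2 called Dusp4 in dKO. A fit of the dKO libraries alone called all 4 lower, where it called 4545 of 12195 genes in either direction. A fit of the WT libraries alone called none of the 4, where it called 31 of 12327 genes. Dusp4 stood at 12.1 and 18 CPM in WT at 24 h and at 7.84 and 13 CPM at 48 h. In dKO it stood at 22.7 and 18.5 CPM at 24 h and at 9.8 and 9.33 CPM at 48 h. The WT libraries of the 2 times overlapped for Dusp4 and the dKO libraries did not. Its differences were -0.47 in WT (SE 0.27, adjusted p = 0.329 in edgeR) and -1.12 in dKO (SE 0.276, adjusted p = 0.0588). Without either WT 48 h library the dKO difference passed (0.00147 and 0.00155), as it did for 3302 of 13248 and 3258 of 13228 genes.

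Dusp5 stood at 30 and 34.3 CPM in WT and 37 and 36.2 CPM in dKO at 24 h. At 48 h it stood at 20.5 and 22.6 CPM in WT and at 19.8 and 29.4 CPM in dKO. Each 48 h library was below each 24 h library, and its difference over time was -0.57 in both labels (adjusted p = 0.101 in WT and 0.134 in dKO in edgeR). Dusp10 stood at 7.43 and 6.89 CPM in WT and 7.42 and 5.94 CPM in dKO at 24 h. The 48 h libraries stood at 3.58 and 3.99 CPM in WT and at 5.35 and 2.98 CPM in dKO. It rested on the fewest counts of the 9, 21 to 76 per library, and its differences were -0.9 in WT (SE 0.287) and -0.71 in dKO (SE 0.299). Within dKO, 8 of the 9 members were lower in both 48 h libraries than in either 24 h library, where 33.5% of all tested genes were. Within WT 6 of 9 were, against 24.4% of all tested genes. Spry2 was the 1 member with the opposite order in both labels, which 22.7% of genes had in WT and 32.8% in dKO (groups apart in either direction: 47.1% and 66.3%).

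**Figure D3:**
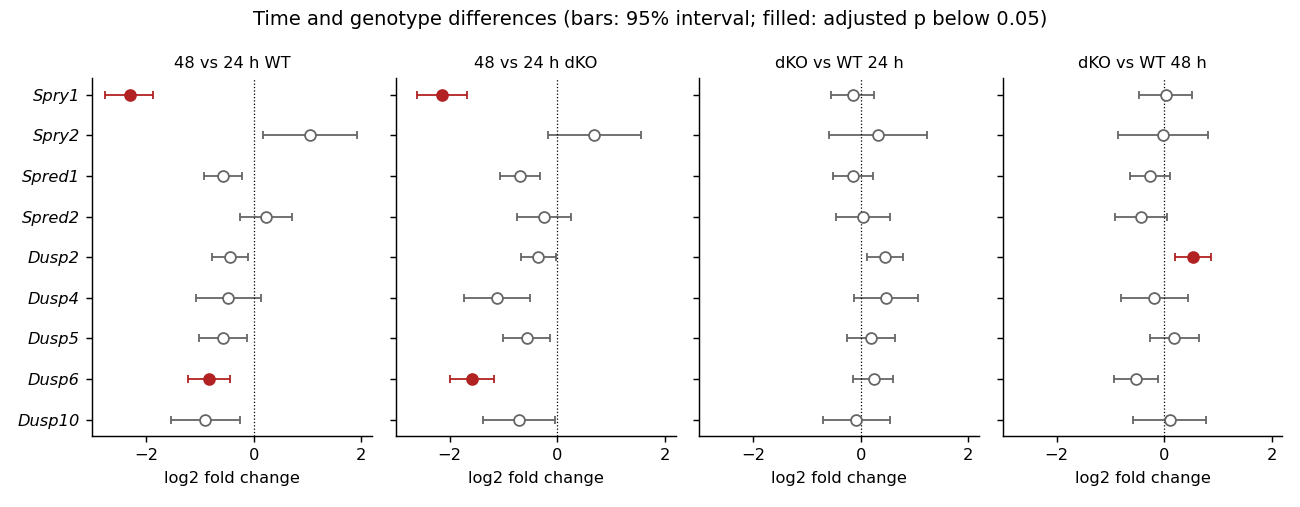
Log2 fold change of each member with its 95% interval, for 48 against 24 h in WT and in dKO and for dKO against WT at 24 and 48 h. Filled points have an adjusted p below 0.05: Spry1 and Dusp6 over time in both labels, and Dusp2 between labels at 48 h (0.54).

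Between genotype labels at 24 h 0 of the 9 members were called in edgeR, where 0.432% of all tested genes were, 0.361% higher and 0.0706% lower. Dusp2 was higher in dKO at an unadjusted p under 0.05, which 6.98% of genes passed in either direction, and DESeq2 called 0 members. In 6 of 9 members both dKO libraries were above both WT libraries at 24 h (Spry2, Spred2 and the phosphatases Dusp2, Dusp4, Dusp5 and Dusp6), where 24.3% of all tested genes were. Spred1 had the opposite order, as 20.6% of genes did, and 44.9% were apart in either direction. At 48 h this held for Dusp2 alone, where 28.3% of genes were, while Spred1 and Dusp6 had the opposite order, where 28.6% were, and 56.9% were apart in either direction. The 95% intervals of Dusp4 (-0.13 to 1.06), Dusp5 (-0.25 to 0.63) and Dusp6 (-0.14 to 0.61) at 24 h included 0, as did that of Dusp10 (-0.71 to 0.55).

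Dusp2, a nuclear phosphatase of activated T cells, was the 1 member called between labels. It stood at 135 and 138 CPM in WT and at 190 and 182 CPM in dKO at 24 h. At 48 h it stood at 107 and 94.6 CPM in WT and at 136 and 157 CPM in dKO. Both dKO libraries were above both WT libraries at each time. The order of the groups was dKO at 24 h, dKO at 48 h, WT at 24 h and WT at 48 h, and the middle pair overlapped. Its log2 fold change between labels was 0.45 at 24 h (SE 0.148, adjusted p = 0.427 in edgeR), 0.54 at 48 h (SE 0.148, adjusted p = 0.0456) and 0.49 over both times (SE 0.105, adjusted p = 0.0267). At 48 h 11.2% of all tested genes were called, 3.19% higher and 8.04% lower. Over both times 7.8% were called, 2.28% higher and 5.52% lower, and Dusp2 was again the 1 member of 9. The size held when any 1 library was left out (0.42 to 0.65 at 48 h). The call at 48 h did not: it was lost without any 1 library other than WT 48 h replicate 1 (adjusted p = 0.059 to 0.318). It was also lost in a fit of the 48 h libraries alone (0.163) and among genes with a mean of at least 50 counts (0.054). The call over both times was lost without any 1 library other than the WT 48 h replicates (0.0592 to 0.158).

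Dusp6 went the other way at 48 h, with a log2 fold change between labels of -0.52 (SE 0.183, adjusted p = 0.0882 in edgeR) that was not called. It was -0.71 (adjusted p = 0.0234) without WT 48 h replicate 2 and -0.36 (adjusted p = 0.0712) without replicate 1, the ends of its range with 1 library left out. The ratio of Dusp6 to Dusp2 counts within a library was 0.231 and 0.214 in WT and 0.195 and 0.189 in dKO at 24 h. At 48 h it was 0.183 and 0.16 in WT and 0.0908 and 0.0734 in dKO. The dKO libraries had the lower ratio at each time, and the gap was wider at 48 h. At 24 h mean Dusp6 was itself higher in dKO (35.7 against 30.4 CPM in WT), as was Dusp2 (186 against 137 CPM). The lower ratio at 24 h therefore does not show a lower Dusp6. This ratio too was chosen after its values were seen and was not tested.

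The test of the difference between the 2 genotype differences found 0 of 12742 genes in edgeR (0% called) and so 0 of 9 members. At an unadjusted p under 0.05 there were 1574 genes (12.4%), Dusp6 among them, and DESeq2 called 0. The interaction of Dusp6 was -0.76 (SE 0.249, 95% interval -1.31 to -0.2, adjusted p = 0.369 in edgeR). Those of Spry1 (0.17) and Dusp5 (0) were small, with intervals of -0.47 to 0.82 and -0.61 to 0.61. Without WT 48 h replicate 1, the interactions of Spred2 (-0.77), Dusp4 (-0.92) and Dusp6 (-0.58) were called, in a fit that called 3460 of 13248 genes, so that 3 of 9 members is near the share of all genes. Spry2 was at -0.03 between labels at 48 h, a value that was 0.77 without WT 48 h replicate 1 and -0.63 without replicate 2, each past the threshold (adjusted p = 0.00254 and 0.0408). Those fits called 6522 of 13248 and 1158 of 13228 genes. Between the labels at 48 h, Spry1 (interval -0.47 to 0.52) and Dusp10 (-0.58 to 0.78) were not called, and the intervals do not show that they were alike.

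**Figure D4:**
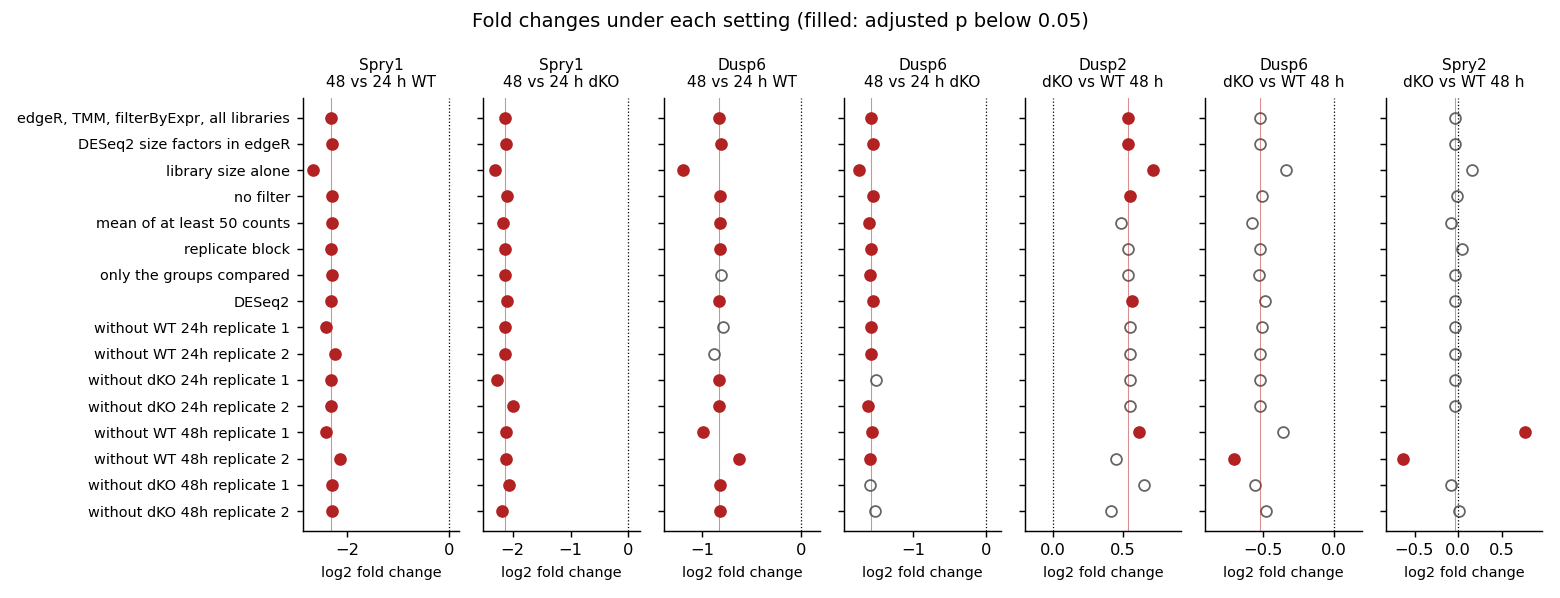
Log2 fold change of Spry1, Dusp6, Dusp2 and Spry2 in the comparisons named above each panel, under the main test (top) and 15 other settings. Filled points have an adjusted p below 0.05: Spry1 stays filled in all, Dusp2 keeps its size (0.42 to 0.72) while its call comes and goes, and Spry2 changes sign with the WT 48 h library left out (0.77 and -0.63).

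Of 20 listed genes that are induced through ERK, 19 were tested. From 24 to 48 h, 6 were called lower and 0 higher in WT, and 4 lower and 0 higher in dKO. The medians of the 19 were -0.37 and -0.3. Over all tested genes 3.5% were called lower in WT and 1.88% in dKO, with medians of 0 and -0.01. Fosl1, an AP-1 subunit, stood at 15.7 to 19.3 CPM in WT and 19.9 to 21 CPM in dKO at 24 h, and at 7.57 to 7.67 and 5.94 to 7.26 CPM at 48 h. It changed by -1.2 in WT (SE 0.191, adjusted p = 0.00296 in edgeR) and -1.62 in dKO (SE 0.199, adjusted p = 0.00316). Egr2, a zinc finger factor induced by antigen receptors, changed by -1.09 (adjusted p = 0.00275 in edgeR) and -1.08 (0.0101). In WT Ier2 (-0.7) and Jun (-0.78) also fell, and in dKO Fosl2 (-1.08) and Phlda1 (-0.93) did. The calls of Fosl1 and Egr2 in WT held with any 1 library left out. Those of Ier2 and Jun in WT, and of Fosl1, Egr2, Fosl2 and Phlda1 in dKO, did not. The counts moved with the library left out. In WT fewer of the 19 were called lower without any 1 library other than the WT 48 h replicates. In dKO more were called lower without either of those, and fewer without any dKO library. Calls over the whole table moved in the same directions. Without WT 48 h replicate 2 the called genes of the list were not all lower in either label. With 1 library left out, Fosl1 ran from -1.37 to -1.05 in WT and from -1.77 to -1.46 in dKO.

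**Figure D5:**
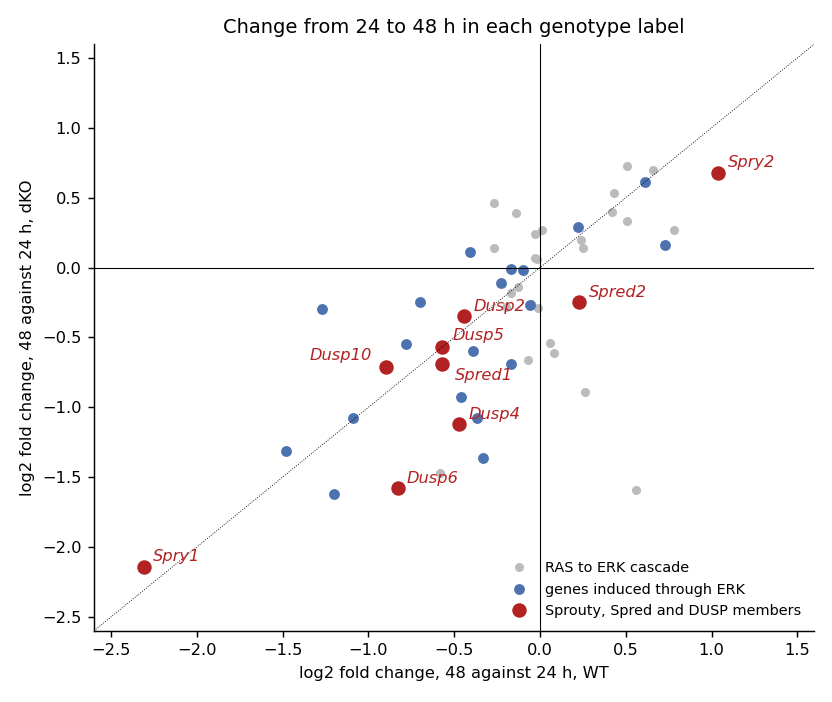
Log2 fold change from 24 to 48 h in WT (x axis) and in dKO (y axis) for the 9 members (red), genes induced through ERK (blue) and genes of the RAS to ERK cascade (grey), each point a gene and the dotted line marking equal change. Spry1 lies at -2.31 and -2.14 and Dusp6 at -0.83 and -1.58, while Spry2 lies at 1.04 and 0.68.

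Between labels, 0 of the 19 were called at 24 h in edgeR, where 0.432% of all tested genes were. At an unadjusted p under 0.05, 2 were higher, where 6.98% of all genes passed in either direction. At 48 h 2 were higher in dKO and 0 lower, where 3.19% of all genes were higher and 8.04% lower. Junb, an AP-1 subunit, stood at 51.9 to 67.7 CPM in WT and 92.5 to 103 CPM in dKO (log2 fold change 0.72, SE 0.159, adjusted p = 0.0218 in edgeR). Ier2 stood at 42.4 to 52.2 and 71 to 72.2 CPM (0.61, SE 0.146, adjusted p = 0.0292). With 1 library left out, the difference ran from 0.54 to 0.9 for Junb and from 0.46 to 0.74 for Ier2. The Junb call was lost without any 1 dKO library, and the Ier2 call held only without a WT 48 h library. Without WT 48 h replicate 1 more of the 19 were called in both directions, as were more genes over the whole table.

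Of 26 genes of the RAS to ERK cascade tested, 0 were called higher and 5 lower in dKO against WT at 48 h. Over all tested genes 3.19% were called higher and 8.04% lower. The median of the 26 was 0.04, against -0.03 over all genes. Nf1, which encodes the RAS inhibitor that Spred proteins recruit, stood at 4.94 to 8.41 CPM in WT and 1.63 to 2.46 CPM in dKO (-1.75, SE 0.333, adjusted p = 0.0157 in edgeR). Sos2, an activator of RAS, was at -1.47 and Rasa3, an inhibitor of RAS, at -1.15. Without WT 48 h replicate 2 these were -0.85 and -0.6, and each call held in 1 of 8 fits with a library left out. The kinase gene Araf was at -0.68 (adjusted p = 0.0346). Over time Rras2, a RAS relative, rose by 0.66 in WT and 0.7 in dKO, and Araf rose in WT (0.78). Nf1 (-1.59) and Rasa3 (-1.47) fell in dKO. Each call of a named cascade gene, between labels and over time, was lost in some fits with 1 library left out. The number of cascade genes called moved with the library left out, between labels and over time. Without WT 48 h replicate 1 more of them were called between labels in both directions, as were more genes over the whole table. With 1 library left out, Nf1 between labels at 48 h ran from -2.09 to -1.24 and Araf from -0.76 to -0.61. Over time in dKO, Nf1 ran from -1.92 to -1.32 and Rasa3 from -1.61 to -1.32.

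Of the members' relatives, 12 of 16 other Sprouty, Spred and DUSP genes were tested. In dKO against WT at 48 h Spred3, the third Spred gene, was lower (-1.13, SE 0.261, adjusted p = 0.0253 in edgeR), Dusp23 was lower (-0.94) and Dusp14 was higher (1.24). Spred3 stood at 22.7 to 29.8 CPM in WT and 10.4 to 14 CPM in dKO. Dusp14 was at a low level, 1.73 to 2.05 CPM in WT and 4.28 to 4.46 CPM in dKO. Of all tested genes 3.19% were called higher at 48 h and 8.04% lower. In WT Spred3 (1.5), Dusp12 (0.53) and Dusp23 (0.96) rose over time, where 7.87% of all tested genes rose and 3.5% fell. In dKO 0 relatives were called over time, where 1.76% of all genes rose and 1.88% fell. At an unadjusted p under 0.05, 5 relatives were higher in dKO, where 23.3% of all genes passed in either direction. Of 13 kinases of the JNK and p38 branch, Map3k5 was lower in dKO at 48 h (-1.01, adjusted p = 0.04998) and at -0.58 without WT 48 h replicate 2. Map2k3, which activates p38, was higher in dKO over both times (0.5, adjusted p = 0.0238 in edgeR), where 2.28% of all tested genes were. It fell over time in both labels (-0.57 and -0.63). Mapk8 fell in WT (-0.6) and Mapkapk2 rose in dKO (0.85). In these lists 1 library left out ended most calls, and Spred3 over time in WT was called in 7 of 8 such fits, Spred3 between labels in 4 of 8, Map3k5 in 1 of 8 and Map2k3 in 2 of 8 in each of its 3 comparisons.

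The genes whose level tracked a member most closely over the 8 libraries were found among 10024 tested genes by Pearson's r of log2 CPM. They are given as a description, since the 8 libraries share 4 groups. For Spry1 they were Plekha1 (r = 0.997) and Ypel3 (0.986), and for Dusp6 Spin4 (0.988) and Rgs2 (0.968), a regulator of G protein signalling. For Dusp2 Nme6 (0.994) was the closest, and they were for Spred1 Rflnb (0.996) and Pacsin1 (0.989), and for Spred2 Nsd1 (0.991) and Polq (0.989). For Spry2 they were Ccne2 (0.983), which encodes a cyclin of the S phase entry, and Zfp207 (0.972). For Dusp4 they were Rad18 (0.99) and Ahcyl1 (0.983), for Dusp5 Eif3d (0.978) and Parn (0.975), and for Dusp10 Elp3 and Pxylp1 (0.957 each). No gene was the closest for more than 1 member.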

How the data were processed

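The authors deposited a table of whole-number counts with a row for each gene symbol. Tools named by the submitters' processing notes are cutadapt 1.18 (trimming) and Bowtie2 2.2.5 (alignment), with the build mm10. How reads were counted, on which annotation and strand, and whether with molecular identifiers, is not given in the sources used here, so a count need not cover all exons of a gene, and floors and intervals cover counting error only. An unnamed last row holds the column totals (50% of each column sum) and was left out. Columns were matched to samples by name.

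All libraries entered 1 fit of edgeR 4.0.16 (R 4.3.3) with a mean per group. TMM scaling and filterByExpr (minimum count 10) were used, with quasi-likelihood F tests, two-sided, and Benjamini-Hochberg adjustment over 12742 genes (common dispersion 0.0246, 4 residual and 5.76 prior degrees of freedom). Each SE was obtained by dividing the size of the log2 fold change by the root of its F. There were 6 comparisons: genotype label at each time and averaged over them, the interaction, and time within each label. Comparisons that use the same group share its libraries. The procedure was tested on simulated counts.

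The members and lists were chosen with earlier results of these data known. Named genes are the members, up to 4 called genes with the smallest p per list and comparison, and the 2 genes most alike to each member (Pearson's r, log2 CPM with prior count 2, mean of at least 20 counts, predicted genes left out), of which 1 is not reported here. Motifs were searched in RefSeq promoter windows. Alternatives were DESeq2 1.42.0, other scaling, other filters, a replicate block, the compared groups alone, and each library left out.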

Additional observations from a re-analysis of the deposited data

How the results depend on the processing

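The calls of Spry1 over time held under every alternative run, 15 in each label, with log2 fold changes of -2.67 to -2.14 in WT and -2.31 to -2 in dKO. Dusp6 was called in 12 of 15 in each label (-1.19 to -0.63 and -1.75 to -1.52). Dusp2 at 48 h kept its direction (0.42 to 0.72) and was called in 5 of 15, and was lost with a mean of at least 50 counts (adjusted p = 0.054) and in the compared groups alone (0.163). The number of members called, with 1 library left out, was 0 to 1 between labels at 24 h, 0 to 3 at 48 h and over both times, 0 to 3 for the interaction, 1 to 6 over time in WT and 1 to 7 in dKO. Each of these highs came from a fit without a WT 48 h library, and those fits also called more of all genes than the main test. The ranges over all genes are given below. At 48 h between labels 0 members were called with a mean of at least 50 counts (all genes: 993 of 9215). The same held with the replicate block (1285 of 12742) and in the compared groups alone (444 of 12137). Over time in WT the number was 6 with library size alone (all genes: 3368 of 12742), 4 with no filter (1982 of 22981) and 1 in the compared groups alone (31 of 12327). Over time in dKO it was 4 with library size alone (737 of 12742), 5 with no filter (1649 of 22981) and 8 in the compared groups alone (4545 of 12195). The cause of these differences was not tested, except that fits of 2 groups hold 4 libraries.

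Libraries with the same replicate number did not deviate together (correlation of deviations between groups -0.076 to 0.172). The labels do not say what the number pairs. With the replicate block, Dusp2 at 48 h was at 0.54 (adjusted p = 0.0649), so the number of members called went from 1 to 0, and the other 5 comparisons had the same number of members called as without it. Values that changed sign there were Spry2 at 48 h (0.05), Dusp10 over both times (-0.03) and the interaction of Dusp5 (-0.01). Library size alone moved the median of all genes to -0.36 over time in WT, -0.18 in dKO and 0.15 between labels at 48 h and for the interaction. Against these medians Spry1 and Dusp6 still had the lower values over time. It changed the sign of Spred2 over time in WT (-0.12), Spry2 at 48 h (0.16), Spry1 over both times (0.02) and the interaction of Spred1 (0.07). A mean of at least 50 counts changed that of Spry1 at 48 h (-0.03) and of the interaction of Dusp5 (-0.03). None of these was called in the main test.

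With 1 library left out, these ranges crossed 0. At 24 h it was Dusp10 (-0.27 to 0.05). At 48 h they were Spry1 (-0.14 to 0.13), Spry2 (-0.63 to 0.77), Spred2 (-0.74 to 0.01), Dusp4 (-0.46 to 0.29), Dusp5 (-0.14 to 0.45) and Dusp10 (-0.35 to 0.47). Over both times they were Spry1 (-0.15 to 0.01), Spry2 (-0.14 to 0.55), Spred2 (-0.35 to 0.03) and Dusp10 (-0.23 to 0.18). For the interaction they were Spry2 (-0.98 to 0.44), Dusp2 (-0.01 to 0.22), Dusp5 (-0.31 to 0.28) and Dusp10 (-0.25 to 0.57), and over time in WT Spred2 (-0.21 to 0.54). Over all genes, library size alone turned the calls at 48 h from 406 higher and 1024 lower to 1624 and 916, over both times from 291 and 703 to 691 and 612, over time in WT from 1003 and 446 to 727 and 2641, and in dKO from 224 and 239 to 143 and 594. With 1 library left out the number of genes called ran from 13 to 368 at 24 h (55 with all), 15 to 6522 at 48 h (1430), 56 to 5606 over both times (994), 0 to 3460 for the interaction (0), 595 to 4214 over time in WT (1449) and 32 to 3302 in dKO (463). In the compared groups alone it was 181, 444, 31 and 4545 at 24 h, at 48 h and over time in WT and dKO, and with no filter 206, 2962, 2264, 170 and 1649 at 24 h, at 48 h, over both times, for the interaction and over time in dKO. Depth limits Dusp10 most, with 21 to 76 counts per library.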
